A study of Mus musculus with 153 samples.

Results

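The stress keratins are 4 genes, Krt6a, Krt6b, Krt16 and Krt17, taken by name from 18810 genes measured in mouse tail skin. All 4 were measured, each by 1 probe set, the group of array probes that reports 1 transcript. The tissue came from a backcross: Mus spretus males were mated with FVB/N Hras -/- females, Hras being a small GTPase of growth factor signalling, and their hybrid daughters were mated back to FVB/N males of genotype Hras -/- or Hras -/+. The mice are therefore genetically mixed, with each inheriting a different set of spretus segments. HET mice (Hras +/-) carried 1 null copy and WT mice (Hras +/+) both working copies. The HET group held 37 mice, 19 males and 18 females, and the WT group 62 males and 52 females, after 2 of 153 arrays that the labels mark as outliers were set aside. All were untreated and 8 weeks old when the skin was frozen, and each contributed 1 Affymetrix array, so the replicate is the mouse. Arrays were labelled with plates 1, 2 and 3, which held 49, 46 and 56 mice, among them 9, 10 and 18 HET mice.

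Keratins form intermediate filaments from pairs of a type II and a type I protein. Krt6a and Krt6b are type II keratins and Krt16 and Krt17 are type I keratins that pair with them. In resting skin these proteins are found mainly in hair follicles, nail beds and the epidermis of the footpads. After wounding, ultraviolet light or inflammation, keratinocytes of the epidermis switch them on together with alarm proteins such as the S100a8 and S100a9 subunits of calprotectin, hence the name stress keratins. Krt17 is also a regular component of the outer root sheath and of the hair shaft's medulla.

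Krt6a and Krt6b lie side by side on chromosome 15 and Krt16 and Krt17 side by side on chromosome 11 in the RefSeq GRCm38.p6 gene order. Within the order, Krt75 of the companion layer comes first, then Gm5478 (listed as a pseudogene), Krt6b, Krt6a and Krt5, the type II keratin of basal cells. Krt6a and Krt6b are near-identical copies, and how far their probe sets read each other's transcripts was not tested. The skin carried the transcripts that define keratinocytes. Krt5 lay between 11.6 and 12.2 on the log2 scale over all mice used, its basal partner Krt14 between 11.1 and 11.7, and the suprabasal pair Krt1 and Krt10 between 11.1 and 12.2 and between 12.03 and 12.37. The upper quartile of all probe sets on an array was 6.61 to 6.90. In bulk skin, fewer cells of a type and less RNA per cell cannot be told apart.

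The 4 keratins differed in how much they varied from mouse to mouse. Krt6b had a lowest value of 3.47, a median of 6.70 and a highest value of 10.96 (log2 of array signal), a range of 180-fold. From the lower to the upper quartile of the mice the range was still 11.01-fold. The lower quartile of all probe sets on an array was 3.02 to 3.27, close to the lowest Krt6b values. How far background signal sets the low end of the range was not tested. After plate, sex and genotype were removed, the standard deviation (SD) of Krt6b over mice was 2.03, which ranked 1 of 18810 genes. The median gene had an SD of 0.220.

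Krt16, the type I keratin most often shown beside Krt6 in stressed epidermis, ran from 5.08 through a median of 7.27 to 10.95, a range of 58.2-fold. Its SD of 1.14 after the same correction ranked 36 of 18810. Krt6a ran from 6.87 through 8.19 to 9.38, a range of 5.66-fold, with an SD of 0.405 that was larger than in 93.8% of genes. Krt17 was the steadiest of the 4, with 10.60, 11.10 and 11.43 as its lowest, median and highest values. Its range was 1.78-fold and its SD of 0.166 was larger than in 20.1% of genes. The mean level of Krt17 stood at percentile 99.5 of all genes. Krt5, Krt14, Krt1 and Krt10, also near the top, had SDs of 0.11, 0.12, 0.20 and 0.07 without the correction. How far a high array signal goes with a narrow spread was not tested.

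High values were spread over many animals. Krt6b lay at least 1 log2 unit above its median in 51 mice and at least 1 below it in 46, and 37 mice were at least 2 units above. Krt16 was skewed upward, with 33 mice at least 1 unit above its median and 18 at least 1 below. Krt6a passed these limits in 2 mice on each side and Krt17 in 0. No gap split the values of any of the 4 into separate clusters in the plot by mouse. The 2 arrays set aside came from WT males of plate 2. Their values lay inside the range of the 20 other WT males of that plate for Krt6a, Krt6b and Krt16, and for Krt17 1 of the 2 (10.82) lay below the lowest of them (10.90).

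**Figure D1:**
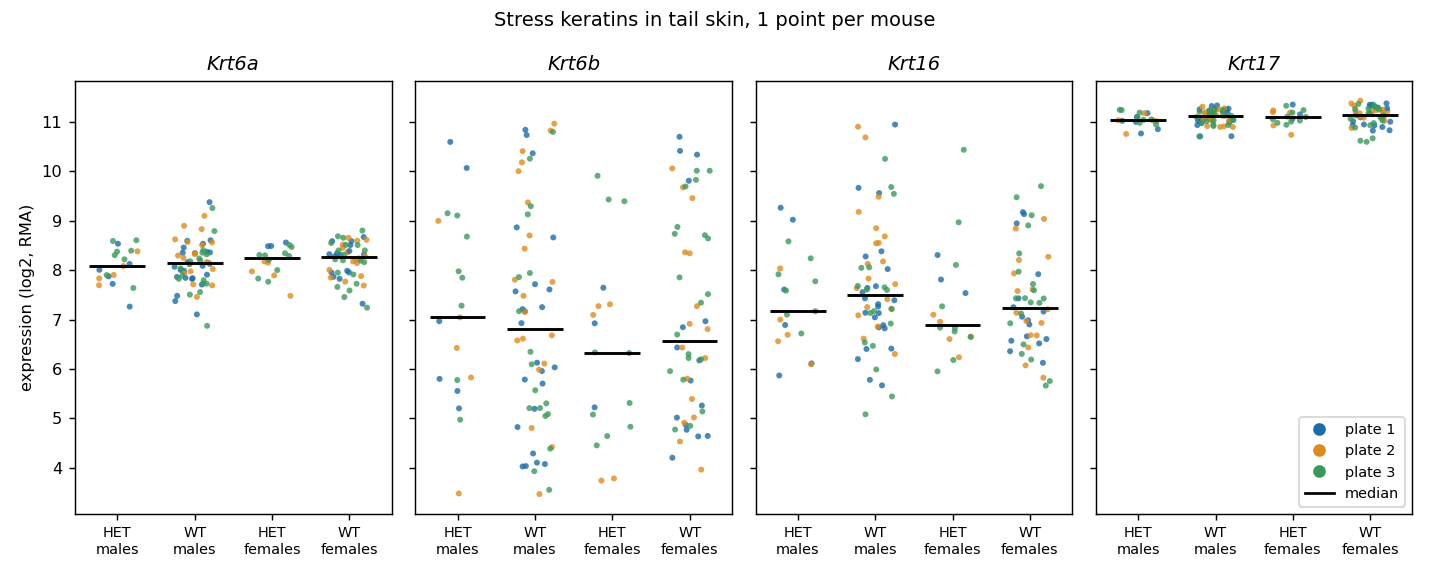
Level of each stress keratin (vertical axis, log2 RMA expression), 1 point per mouse coloured by plate, in HET males, WT males, HET females and WT females; black lines are group medians. Krt6b points spread from 3.47 to 10.96 and Krt17 points from 10.60 to 11.43, and the 4 groups overlap in each panel.

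The first comparison asked whether the stress keratins differed between HET and WT mice, and none of the 4 passed the test. In this cross a working Hras copy from the mother was the spretus one. All WT mice therefore carried a spretus copy and had an Hras -/+ father. HET mice could have either working copy and either kind of father. Loss of 1 Hras copy cannot be told apart from these differences of descent here. The fit was limma over 18810 genes with genotype, sex and plate in the same model, and genes with a Benjamini-Hochberg adjusted p under 0.05 are described as called. By that rule 0.112% of genes were called between HET and WT mice.

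Krt6b had a lowest, median and highest value of 3.48, 6.92 and 10.59 in HET mice, against 3.47, 6.69 and 10.96 in WT mice. The ranges coincide. The difference was -0.24 ± 0.39 (SE, HET minus WT, log2), with a 95% confidence interval of -0.998 to 0.53 and a limma adjusted p of 0.96, so that HET means from 0.50 to 1.44 times the WT mean lay inside the interval. For Krt16 the 3 values were 5.87, 7.10 and 10.43 in HET mice and 5.08, 7.37 and 10.95 in WT mice. The difference of -0.22 ± 0.22 (SE) had an interval of -0.65 to 0.21 and a limma adjusted p of 0.92.

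The other 2 were measured more tightly. Krt6a ran through 7.26, 8.17 and 8.61 in HET mice and 6.87, 8.19 and 9.38 in WT mice, a difference of -0.04 ± 0.08 (SE, interval -0.19 to 0.12, limma adjusted p = 0.97). Krt17 ran through 10.74, 11.05 and 11.35 in HET mice and 10.60, 11.12 and 11.43 in WT mice, a difference of -0.03 ± 0.03 (SE, interval -0.10 to 0.03, limma adjusted p = 0.91). The groups overlapped for both, and the Krt17 interval ran from 0.93 to 1.02 times the WT mean.

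The genotype differences of Krt16 were 0.19, -0.96 and 0.023 (log2, HET minus WT) on plates 1, 2 and 3. For Krt6b they were 0.40, -1.16 and -0.015. Plate 2 therefore carried most of the negative estimate, where limma on that plate alone gave Krt16 an adjusted p of 0.41. A genotype by plate term was called in 0% of genes, with 1706 at an unadjusted p under 0.05, and its limma adjusted p for the 4 keratins ran from 0.61 to 0.78.

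No stress keratin passed the test between males and females either, on a background of 3.62% of genes called between the sexes. Krt16 had values of 5.08, 7.43 and 10.95 (lowest, median, highest) in males and 5.66, 7.15 and 10.43 in females, and differed by 0.26 ± 0.19 (SE, male minus female, interval -0.11 to 0.62, limma adjusted p = 0.55). Krt6b had 3.47, 6.97 and 10.96 in males and 3.74, 6.43 and 10.70 in females, a difference of 0.21 ± 0.33 (SE, interval -0.45 to 0.86, limma adjusted p = 0.83). The sexes covered nearly the same ranges. The differences of Krt6a and Krt17 were -0.06 ± 0.07 and -0.03 ± 0.03 (SE), with limma adjusted p of 0.72 and 0.67.

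Some genes that travel with stress keratins in inflamed skin did differ between the sexes. Of 26 measured alarm and cornified envelope genes, 4 were called higher in males and 0 lower, with a median difference of 0.09 beside -0.01 over all genes. Stfa3, a cystatin of the stefin A family, averaged 7.06 in males and 6.23 in females, a difference of 0.86 ± 0.16 (SE, limma adjusted p = 4.1e-05). S100a8, a calprotectin subunit, averaged 5.57 in males and 4.66 in females (difference 0.94 ± 0.29, SE, limma adjusted p = 0.039). The other called members were Sprr2d, a small proline-rich protein of the cornified envelope, with a difference of 0.44 ± 0.09 (SE), and Lcn2, the siderophore-binding lipocalin, with 0.49 ± 0.13 (SE). Krt1 and Krt14 were also called higher in males, by 0.11 ± 0.03 and 0.07 ± 0.02 (SE). Markers of other cell types differed between the sexes too. In males 3 of 11 leukocyte genes were called lower (Kit, Cpa3 and Cd74), as were 2 of 7 adipocyte genes and 3 of 9 companion layer and outer root sheath genes. Of 27 hair shaft and inner root sheath genes 1 was called higher and 3 lower in males, of 7 dermal fibroblast genes 3 higher and 2 lower, and of 8 sebaceous gland genes 2 higher and 1 lower. Their part in the sex difference of the alarm genes was not tested. Between genotypes no member of the alarm list was called, and the median difference was -0.01.

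By genotype and sex together, the median of Krt6b was 7.05 in HET males, 6.804 in WT males, 6.33 in HET females and 6.57 in WT females. The steps between these 4 medians are all smaller than the SD within any of the groups, which ran from 1.91 to 2.17. An SD describes how far the mice of the groups overlap, and not how precisely a median is known. For Krt16 the medians were 7.17 in HET males, 7.49 in WT males, 6.90 in HET females and 7.23 in WT females, with SDs from 0.97 to 1.30. Krt6a medians ran from 8.08 in HET males to 8.26 in WT females and Krt17 medians from 11.03 in HET males to 11.13 in WT females, again within the spread of each group. The test of whether the genotype difference depended on sex gave Krt6b a difference of differences of 0.88 ± 0.76 (SE, males minus females), and the limma adjusted p was 0.998 for each keratin. Genotype by sex and sex by plate terms were each called in 0% of genes, with 895 and 1079 at an unadjusted p under 0.05.

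**Figure D2:**
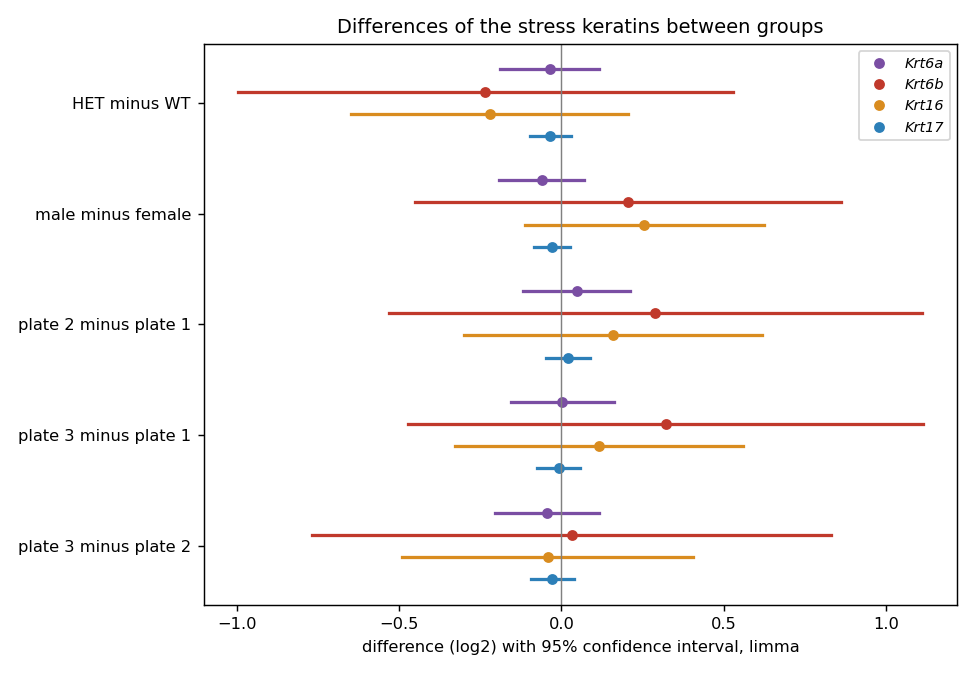
Differences of each stress keratin between genotypes, sexes and plates (horizontal axis, log2, estimate with 95% confidence interval from limma). Each interval crosses 0, and those of Krt6b are the widest, from -0.998 to 0.53 for HET minus WT.

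The plates did not separate the stress keratins. Krt6b medians were 6.18, 6.98 and 6.52 on plates 1, 2 and 3 and Krt16 medians 7.25, 7.24 and 7.39. Krt6a medians were 8.13, 8.17 and 8.21 and Krt17 medians 11.08, 11.15 and 11.10. The largest plate differences belonged to Krt6b, 0.32 ± 0.40 (SE) for plate 3 minus plate 1 and 0.29 ± 0.42 (SE) for plate 2 minus plate 1, and the limma adjusted p of the test over 3 plates was 1.00 for each of the 4. That test called 0.0213% of genes. Plate 2 against plate 1 called 0% (limma, 385 genes at an unadjusted p under 0.05), plate 3 against plate 1 0.0213% and plate 3 against plate 2 0.0213%. In the test over 3 plates only 0.808% of genes had an unadjusted p under 0.05, fewer than the 5% that a test without any plate effect gives. No source used here states whether the values had been adjusted for plate before deposit.

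Across mice the keratins paired unevenly, and the highest correlations were not those of neighbouring genes. Correlations were computed over all mice on residuals after plate, sex and genotype, with two-sided permutation tests (100000 draws, smallest possible p 1e-05) and Benjamini-Hochberg adjustment over 6 pairs. Krt6b and Krt16, a type II and a type I gene on different chromosomes, gave the highest value (Pearson r = 0.77, Spearman rho = 0.72, permutation p = 1e-05 for both, adjusted p = 1.5e-05). It was 0.74, 0.79 and 0.78 on plates 1, 2 and 3.

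Krt6a and Krt16 followed with r = 0.66 and rho = 0.64 (permutation p = 1e-05, adjusted p = 1.5e-05) and 0.72, 0.72 and 0.55 on the 3 plates. Krt6a was the only one of the 4 whose Pearson correlation passed with all the others. Its r with Krt17 was 0.48 (rho = 0.52) and with its neighbour Krt6b 0.45 (rho = 0.41), each with permutation p = 1e-05 and adjusted p = 1.5e-05. Within plates the r with Krt17 was 0.56, 0.46 and 0.42, and that with Krt6b was 0.37, 0.58 and 0.42.

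Krt17 stood apart from Krt6b and Krt16. The neighbours Krt16 and Krt17 had r = 0.13 (permutation p = 0.12, adjusted p = 0.15), although the rank correlation of 0.21 passed (permutation p = 0.0093, adjusted p = 0.011). On plates 1, 2 and 3 their r was 0.21, 0.16 and 0.024, and no plate passed by itself. Krt6b and Krt17 had r = 0.023 (permutation p = 0.78) and rho = 0.067 (permutation p = 0.41), and 0.0046, 0.27 and -0.13 by plate. When the 2 mice with the most extreme values of a pair's first gene were left out, the 4 passing correlations were 0.43 (Krt6a with Krt6b), 0.64 (Krt6a with Krt16), 0.51 (Krt6a with Krt17) and 0.76 (Krt6b with Krt16). The array median, a measure of overall signal, had r between -0.07 and 0.05 with the 4 keratins.

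The mice with the highest levels, as measured and without removing plate, sex and genotype, are described here without a test. Of the 15 highest mice for Krt6b (9.93% of all mice), 10 were among the 15 highest for Krt16, and 9 of the 15 highest for Krt6a were among those of Krt16. Krt6a and Krt6b shared 8. Krt17 shared 2 with Krt6a, 3 with Krt6b and 1 with Krt16.

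**Figure D3:**
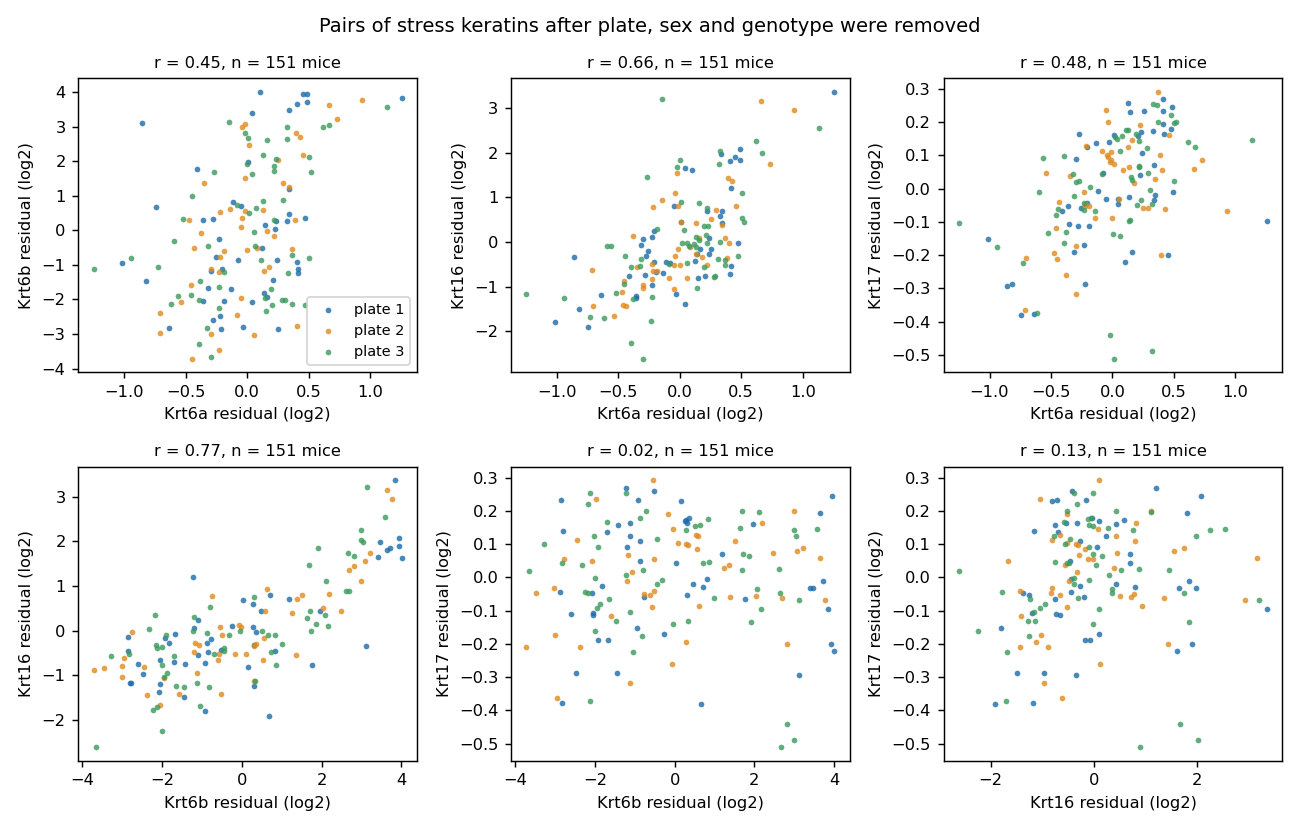
Residual levels of the 6 pairs of stress keratins (both axes log2, after plate, sex and genotype were removed), 1 point per mouse coloured by plate. Krt6b and Krt16 climb together (r = 0.77), Krt6a follows each of the others, and Krt17 shows no slope against Krt6b (r = 0.023).

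The genes that varied with each keratin were found with limma, taking the keratin's level as a covariate beside plate, sex and genotype, 1 fit per keratin over the other 18809 genes. With Krt6b, 3.94% of genes had a called positive slope and 2.63% a called negative slope. With Krt16 the shares were 6.73% and 5.14%, with Krt6a 4.44% and 3.78%, and with Krt17 6.67% and 5.33%. All 4 fits used the same mice, and genes of a tissue vary together, so these shares describe the mice and are not counts of independent relations. Where each array was centred on its median, the positive share of called genes was 68.4% in place of 54.04% for Krt6a and 68.5% in place of 55.6% for Krt17. Quantile normalization moved it the other way, to 49.3% for Krt6a and 49.9% for Krt17, so the balance of signs depended on scaling.

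The genes most like Krt6b and Krt16 included several of the alarm list. S100a8 had the highest r with both, 0.79 with Krt6b and 0.85 with Krt16, and lay between 0.75 and 0.83 and between 0.83 and 0.88 within plates. S100a8 itself ran from 2.64 through a median of 4.46 to 10.85 over mice. A mouse with Krt16 higher by 1 log2 unit had S100a8 higher by 1.31 ± 0.07 (SE, limma adjusted p = 2.7e-40), and per unit of Krt6b the slope was 0.68 ± 0.04 (SE, limma adjusted p = 9.4e-30). Its partner S100a9 had r = 0.71 with Krt6b and 0.79 with Krt16. Defb3, an antimicrobial beta-defensin that ran from 3.52 to 11.11, had 0.74 and 0.79, and Sprr2e of the cornified envelope 0.68 and 0.75.

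Other genes at the top were Car2, a carbonic anhydrase (r = 0.67 with Krt6b and 0.76 with Krt16), Rbp2, a retinol-binding protein (0.70 and 0.74), and 2610528A11Rik (0.73 with Krt6b). The 20 genes with the highest r for Krt6b and the 20 for Krt16 had 14 genes in common. At the other end, Cd82, a tetraspanin of the cell membrane, fell most closely with both keratins (r = -0.54 with Krt6b and -0.57 with Krt16). For Krt6b it was followed by Bbox1, an enzyme of carnitine synthesis, Trim2, a ubiquitin ligase, and Irs1, an adaptor of insulin signalling, each with r = -0.45. For Krt16 it was followed by Sntb1, a syntrophin, Cat, the catalase that breaks down hydrogen peroxide, and Acoxl, each with r = -0.55.

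Krt6a had some of these genes among its own closest correlates. Krt16 came first among its correlates (r = 0.66), then Gm5478 (0.60), Dsc2 and Dsg3, the desmosomal cadherins that join keratinocytes (0.57 and 0.54), Tagln2, an actin-binding protein (0.57), Car2 (0.55), Cwh43 (0.53) and Eif3b, a translation initiation factor subunit (0.52). Within plate 2 the r of Dsg3 was 0.21. The genes that fell most closely with Krt6a were Tmem45a2 (-0.48), Acsl4, a fatty acid activating enzyme (-0.48), Tdrd3 (-0.47) and Pik3r1, a regulatory subunit of PI3-kinase (-0.46). Gm5478 also ranked among the 8 genes most like Krt16 (0.73), and its r with Krt6b was 0.63. It lay between 3.73 and 5.01, and whether its probe set reads Krt6 transcripts was not tested.

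Car2, Csta3, Gm5478, Klk13, S100a8 and S100a9, 6 genes in all, stood among the 20 highest correlates of Krt6a, Krt6b and Krt16 alike. Klk13 is a kallikrein protease and Csta3 a stefin-type protease inhibitor. None of the 6 was among the 20 highest for Krt17, where their r ran from -0.05 (S100a9) to 0.25 (Klk13).

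Krt17 kept different company. Its closest genes were Pinlyp (r = 0.74, between 0.67 and 0.85 within plates), Sprr1a, a cornified envelope protein (0.73), Car6, a secreted carbonic anhydrase (0.72), AU018091 (0.68), Plet1, a surface protein of hair follicle progenitors (0.68), Pgap2, an enzyme of GPI-anchor maturation (0.66), Nppc, the C-type natriuretic peptide precursor (0.66), and Klk10, a kallikrein (0.65). Falling with it were Fut8, the core fucosyltransferase (-0.51), Pla2g5, a secreted phospholipase (-0.50), Serpina3n, a serine protease inhibitor (-0.48), and Pip4k2a, a phosphoinositide kinase (-0.47). Of the 100 genes with the highest r for Krt17, 25 lay on its own chromosome 11, which holds 7.80% of the genes. Chromosome 11 also holds other keratin genes near Krt17, among them Krt14, Krt15 and Krt42, and the part of keratin genes in the 25 was not tested. For Krt6a, Krt6b and Krt16 the 100 highest held 17, 15 and 17 genes of chromosome 3, home of the S100a and Sprr genes, beside 4.71% of all genes. They held 10, 12 and 16 genes of chromosome 2, beside 8.68% of all genes. Of the genes named as falling with Krt6b or Krt16, Cd82, Bbox1, Cat and Acoxl also lie on chromosome 2. The others, Trim2, Irs1 and Sntb1, lie on chromosomes 3, 1 and 15. Backcross mice inherit long chromosome segments, whose part in these shares was not tested. Krt42, the next gene after Krt17, had r = 0.54 with it, and Krt14, the gene before Krt16, had 0.27 with Krt16 (Krt42 chosen after its value was seen).

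Lists of genes with known roles are described by their counts and medians, with no test of the list. Of the 26 measured alarm and cornified envelope genes, 21 had a called positive slope with Krt6b and 0 a negative one, and the median r was 0.45, beside -0.01 over all genes. With Krt16 the counts were 20 and 1, with a median r of 0.51. The negative one was Ivl, involucrin, a cornified envelope precursor (r = -0.26). With Krt6a they were 20 and 0 with a median r of 0.39. With Krt17 they were 4 and 0, with a median r of 0.07 beside 0.01 over all genes. These 4, named after their values were seen, were Sprr1a (0.73), Gjb2, a gap junction connexin (0.48), Defb4, another beta-defensin (0.43), and Sprr1b (0.25). Il1b, the inflammatory cytokine, had r = 0.54 with Krt6b and 0.59 with Krt16, and Il1a had -0.11 with both without being called (both chosen after their values were seen).

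Hair genes varied with Krt17 instead. Of 27 measured genes of the hair shaft and inner root sheath, 23 had a called positive slope with Krt17 and 0 a negative one (median r 0.42). With Krt6b and with Krt16 the counts were 1 and 1. The positive one was Tgm3, a transglutaminase that cross-links both hair and cornified envelope proteins (r = 0.53 and 0.56), and the negative one Gata3, a transcription factor of the inner root sheath (-0.37 and -0.41). By plate the median r of the list changed sign with both. On plates 1, 2 and 3 it was -0.34, 0.13 and -0.04 with Krt6b and -0.18, 0.22 and -0.06 with Krt16. With Krt17 it was 0.55, 0.36 and 0.44. Among the hair keratins, Krt27 of the inner root sheath had r = 0.60 with Krt17, -0.10 with Krt6b and -0.06 with Krt16, and Tchh, trichohyalin, had 0.56, -0.11 and -0.07 (both chosen after their values were seen). Many members of this list are keratin genes, and chromosome 11 holds keratin genes near Krt17. The part of shared chromosome segments in the calls of the list with Krt17 was not tested. With Krt6a the list had 3 positive calls and 1 negative and a median r of 0.16, but without the 2 mice highest in Krt6a 12 members were called positive, and with the 2 labelled outlier arrays kept, 1.

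The companion layer and outer root sheath list of 9 genes had 8 positive calls with Krt17 and 1 negative one (median r 0.45). Sox9, a stem cell transcription factor of the follicle, reached 0.61, Lrig1 0.51 and Krt75 0.48, and the negative call was Cd34 (-0.25, all 4 chosen after their values were seen). Barx2, a homeobox factor, had r = 0.50 with Krt17 and 0.31 with Krt6a, and both slopes were called. With Krt6b and Krt16 this list had 0 calls in either direction by limma, while 2 were called positive with Krt6a, Barx2 and Lrig1.

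Proliferation genes moved with Krt16, Krt6b and Krt6a. All 18 measured cell cycle genes had a called positive slope with Krt16 (median r 0.36), 16 with Krt6b (0.30) and 12 with Krt6a (0.24). With Krt17, 0 were called by limma, and the median r was 0.12. Rrm2, the ribonucleotide reductase subunit of S phase, had r = 0.48 with Krt16, and the replication licensing genes Mcm3 and Mcm2 had 0.47 and 0.46.

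**Figure D4:**
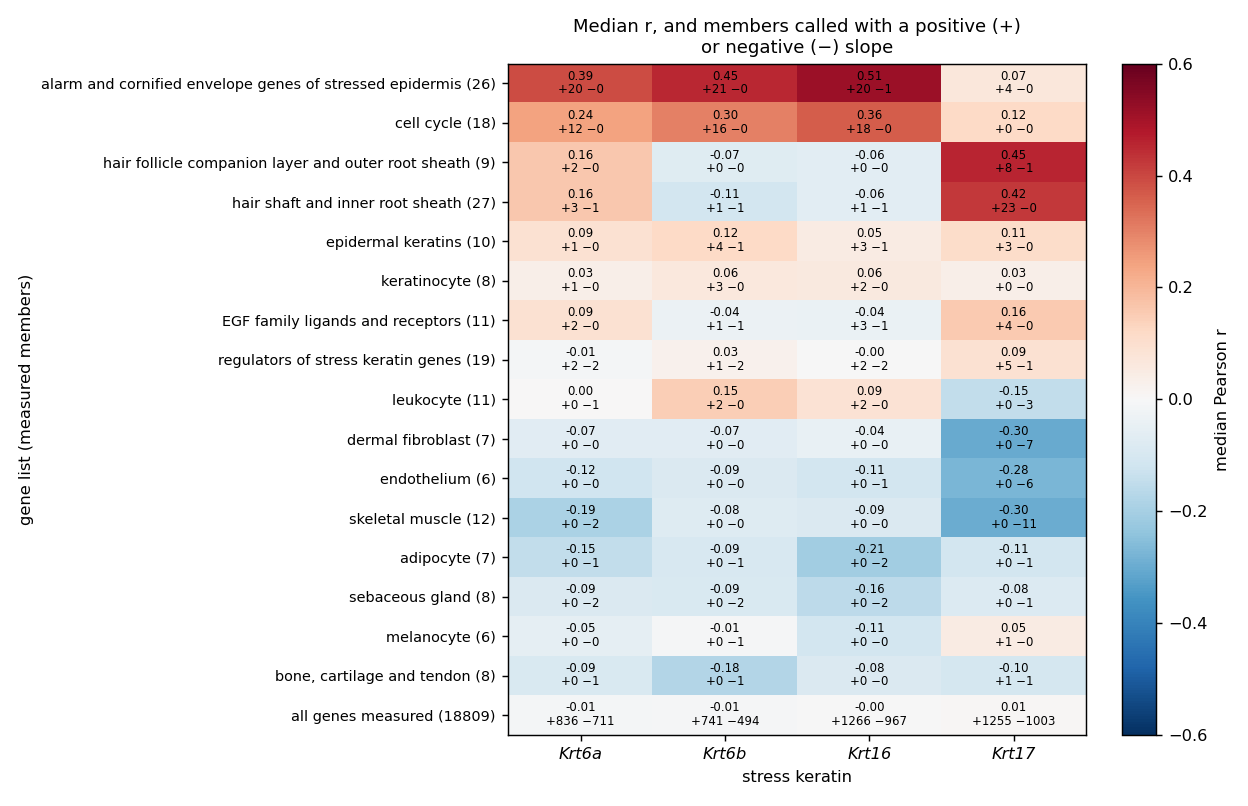
Median Pearson r of each gene list with each stress keratin across mice (colour and upper number), with the members called positive and negative by limma in the lower line; the number of measured members stands after each list name. The alarm list is at 0.39, 0.45 and 0.51 for Krt6a, Krt6b and Krt16 and at 0.07 for Krt17, and the hair shaft list is at 0.42 for Krt17.

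The other epidermal keratins did not move as a block. Of 10 measured, 4 were called positive and 1 negative with Krt6b, 3 and 1 with Krt16, 1 and 0 with Krt6a and 3 and 0 with Krt17. Krt1, the early keratin of suprabasal cells, had r = 0.58 with Krt6b and 0.40 with Krt16, while its usual partner Krt10 had 0.06 and 0.07. Krt78, a suprabasal type II keratin, had 0.44 and 0.28 and basal Krt14 had 0.34 and 0.27. The negative call was Krt80 (-0.30 with Krt6b and -0.25 with Krt16, chosen after its values were seen).

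Among regulators, 19 measured factors linked to stress keratin genes gave 1 positive and 2 negative calls with Krt6b and 2 and 2 with Krt16. The counts were 2 and 2 with Krt6a and 5 and 1 with Krt17. Over all genes the positive and negative shares were 3.94% and 2.63% with Krt6b and 6.73% and 5.14% with Krt16. For Krt6a these shares were 4.44% and 3.78%, and for Krt17 6.67% and 5.33%. Stat3, which carries cytokine signals, had r = 0.40 with Krt6b and 0.44 with Krt16, and -0.08 with Krt17. Cebpb, a bZIP factor, had 0.36 with Krt16 and 0.35 with Krt6a. Ahr, the aryl hydrocarbon receptor, fell with Krt6b (-0.28), Krt16 (-0.39) and Krt6a (-0.29). Nr3c1, the glucocorticoid receptor, which represses stress keratin genes in human keratinocytes, had a called negative slope with all 4, with r of -0.41, -0.32, -0.34 and -0.37 for Krt6a, Krt6b, Krt16 and Krt17 (chosen after its values were seen).

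EGF family signalling induces stress keratins in cultured human keratinocytes. Of 11 measured ligands and receptors, Epgn, the ligand epigen, had a called positive slope with all 4 keratins (r of 0.34, 0.36, 0.39 and 0.30 for Krt6a, Krt6b, Krt16 and Krt17). Btc, betacellulin, fell with Krt6b (-0.25) and Krt16 (-0.27). In all, 1 was called positive and 1 negative with Krt6b, 3 and 1 with Krt16, 2 and 0 with Krt6a and 4 and 0 with Krt17. The Krt17 calls included Tgfa (0.40), Nrg1 (0.36) and the receptor Erbb3 (0.30), chosen after their values were seen.

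Markers of other cell types moved with the keratins to different degrees. With Krt17, 11 of 12 skeletal muscle genes, 7 of 7 dermal fibroblast genes and 6 of 6 endothelial genes had called negative slopes, with median r of -0.30, -0.30 and -0.28. With Krt6b none of these 25 genes was called, with Krt16 only the endothelial Vwf (-0.23), and with Krt6a 2 muscle genes were called negative. With Krt16 and Krt17 together in 1 limma model, the 2 slopes differed for 1 of the 12 muscle genes (Actn3), 1 of the 7 fibroblast genes (Postn) and 0 of the 6 endothelial genes (both named after their values were seen), so for most of these genes a difference between the 2 keratins was not shown. The mean level of the muscle list, whose genes mark tail muscle in the sample, lay between 3.76 and 7.60 in HET mice and 3.69 and 7.64 in WT mice, and its r was -0.32 with Krt17 and -0.09 with Krt6b. The fibroblast mean had -0.34 and -0.06, and that of the leukocyte list -0.21 and 0.17. Their part in the Krt17 result was not tested.

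Of 11 leukocyte genes, Ptprc, the pan-leukocyte CD45, and Itgam, an integrin of neutrophils and macrophages, were called positive with Krt6b (r = 0.31 and 0.29) and with Krt16 (both 0.25). With Krt17 3 were called negative, Adgre1, Csf1r and Itgam, of which the first 2 mark macrophages and were named after their values were seen. S100a8 and S100a9 are made by neutrophils as well as by keratinocytes, and which cells held these transcripts was not tested. Of 8 sebaceous gland genes, Awat2 and Far2, which make wax esters, fell with Krt6b (-0.26 and -0.29) and with Krt16 (-0.34 and -0.40). Pparg, the adipocyte and sebocyte receptor, fell with all 4 keratins (-0.41 with Krt16), and of 7 adipocyte genes 2 fell with Krt16. Of 6 melanocyte genes Mitf was called, negative with Krt6b (-0.27) and positive with Krt17 (0.31). The list of 8 bone, cartilage and tendon genes had at most 1 call in a direction with any keratin.

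Whether genes follow Krt16 and Krt17 differently was tested directly by placing both in 1 limma model, each in units of its own residual SD, a model added after the correlations were seen. The slope was called greater for Krt16 in 4.08% of genes and greater for Krt17 in 5.24%. S100a8 rose by 1.51 ± 0.07 (SE, log2) per SD of Krt16, against -0.15 ± 0.07 per SD of Krt17, and the difference of 1.66 ± 0.11 had a limma adjusted p of 2.7e-27. Krt6b rose by 1.59 ± 0.11 (SE) per SD of Krt16, against -0.15 ± 0.11 per SD of Krt17 (limma adjusted p of the difference 1.3e-17). Krt27 went the other way, with -0.10 ± 0.05 (SE) per SD of Krt16 and 0.43 ± 0.05 per SD of Krt17 (limma adjusted p of the difference 6.4e-10).

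In that model 18 of 26 alarm genes had the greater slope on Krt16 and 2, Sprr1a and Ivl, on Krt17. Of 27 hair shaft genes 1 had the greater slope on Krt16, Tgm3, and 24 on Krt17. Of the 9 genes of the companion layer and outer root sheath list the counts were 0 and 8. Of 18 cell cycle genes 4 had the greater slope on Krt16 and 0 on Krt17. Krt6a rose with both, by 0.25 ± 0.02 (SE) per SD of Krt16 and 0.16 ± 0.02 per SD of Krt17, and these slopes did not pass the test of their difference (0.08 ± 0.03, SE, limma adjusted p = 0.086). Dsc2 and Gjb2 also rose with both, by 0.13 ± 0.02 and 0.09 ± 0.02 (SE) per SD of Krt16 and by 0.15 ± 0.02 and 0.10 ± 0.02 per SD of Krt17, with limma adjusted p of the difference of 0.86 and 0.90.

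**Figure D5:**
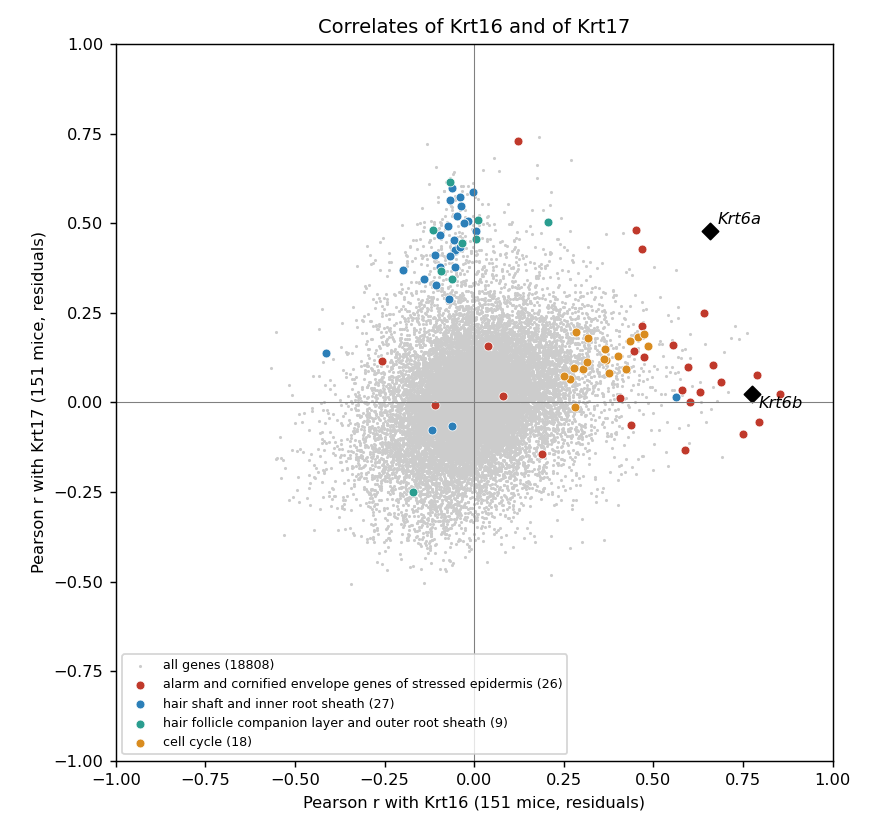
Pearson r of each gene with Krt16 (horizontal axis) and with Krt17 (vertical axis) across mice, on residuals after plate, sex and genotype; grey points are all genes and coloured points 4 gene lists. Alarm genes lie to the right, hair genes toward the top, Krt6b at 0.77 and 0.023 and Krt6a at 0.66 and 0.48.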

How the data were processed

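RNA of tail skin was hybridised to Affymetrix arrays, 1 per mouse. The values the authors deposited are log2 expression from RMA (background correction, normalization between arrays, summary per probe set), per the submitters' processing notes. Neither the RMA version, nor any later adjustment, nor a genome build is stated in the sources used here, and coordinates are left out. Of 153 arrays, 2 labelled outliers were left out. Precision is limited by how many mice each group holds. Array medians ran from 4.67 to 4.89 and no 2 arrays correlated above 0.986.

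Symbols came from the platform annotation, updated through gene identifiers to RefSeq GRCm38.p6 (21168 of 21201 probe sets with 1 symbol matched). For each gene the probe set with the highest mean was used. The Hras transcript is not reported here and the genotype labels were not checked against it.

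Fits used limma 3.58.1 in R 4.3.3 (eBayes with a mean-variance trend), and permutation tests scipy 1.17.1 and numpy 2.4.6 in Python 3.11.15. Scripts were tested on simulated data. The members and the 16 gene lists were chosen with earlier results of these data known, and counts over a list describe it without a test. The rule for named genes takes, for each keratin, the 8 highest and 4 lowest r among called genes, genes among the 20 highest for at least 3 keratins, and up to 3 members per list, either with the largest r in size with Krt6b or Krt16 or with the smallest p among called sex, genotype or plate differences. Alternatives covered arrays, scaling, probe set rule, low values, variance model, covariates and plates.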

Additional observations from a re-analysis of the deposited data

How the results depend on the processing

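No genotype, sex or plate difference of the 4 keratins passed under any alternative (lowest limma adjusted p 0.34, Krt16 between sexes on plate 2 alone). Signs turned in subsets, none passing. HET minus WT (log2) was 0.40 (Krt6b) and 0.19 (Krt16) on plate 1 alone, 0.12 (Krt6a), 0.023 (Krt16) and 0.020 (Krt17) on plate 3 alone, 0.25 for Krt6b in males alone and 0.0021 for Krt6a in females alone. Male minus female was 0.059 for Krt6a on plate 2 alone, -0.28 (Krt6b) and 0.00029 (Krt17) on plate 3 alone, and -0.015 for Krt6b in WT alone. The r of Krt6b with Krt17 was -0.13 on plate 3 alone, and the other 53 Pearson correlations run under alternatives kept their sign and side of the threshold. The rank correlation of Krt16 with Krt17, which passed with all mice, did not pass on single plates. Its permutation adjusted p was 0.069, 0.23 and 0.25 on plates 1, 2 and 3 alone. Counts of genes that vary with a keratin were lower on plates 1, 2 and 3 alone, each with fewer mice. For Krt6a they were 300, 123 and 36 (1547 with all mice) and for Krt6b 161, 236 and 131 (1235). For Krt16 they were 331, 790 and 296 (2233) and for Krt17 712, 57 and 353 (2258). Plate 3, the largest, had the lowest counts for Krt6a, Krt6b and Krt16, and plate 2, the smallest, the lowest for Krt17. Why the plates differed was not tested. Alarm genes called positive on the single plates numbered 10, 9 and 0 with Krt6a, 15, 13 and 11 with Krt6b and 17, 19 and 16 with Krt16, and hair shaft genes with Krt17 19, 4 and 15. No paired analysis was possible because replicate numbers only name the mice.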
